A study of Mus musculus with 9 samples.

Results

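The 10 genes described here encode fibrillar matrix and the proteins that shape it. They are the collagen chains Col1a1, Col1a2 and Col3a1, fibronectin (Fn1), the collagen-binding protein Sparc, the crosslinking enzyme Lox, the protease inhibitors Timp1, Timp2 and Timp3, and the membrane protease Mmp14. They were taken by symbol from a table of FPKM values (fragments scaled to transcript length and to mapped fragments) with 23309 symbols, and each stood on 1 row. Values are given for all 9 libraries of the series. The libraries hold RNA of podocytes, the epithelial cells that cover the glomerular capillaries of the kidney, during injury. All mice were labelled wildtype and 7 to 8 weeks old, and carried the mTmG reporter with a Cre transgene active in podocytes. Recombined cells of such mice carry the green fluorescent protein by which the cells were collected. One group of 3 libraries came from mice given PBS, one from mice 9 days after an injection of ADR (ADR_D9) and one from mice 14 days after it (ADR_D14). ADR in podocyte studies usually stands for Adriamycin (doxorubicin), although the labels give only the abbreviation. Whether each library came from its own animal is not stated in the labels. The p-values therefore cover the spread among these 9 libraries, which may be technical.

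Fibrillar collagens form the load-bearing cables of connective tissue. Type I is built from Col1a1 and Col1a2 chains and type III from Col3a1 chains. Fibronectin links collagen to integrins, Sparc binds collagen outside the cell, and Lox crosslinks collagen and elastin. Mmp14 is a protease of the cell surface that cuts collagen and activates Mmp2 with the help of Timp2, while Timp3 binds to the matrix itself and inhibits metalloproteases there. In the healthy glomerulus the matrix beside podocytes is a basement membrane of type IV collagen and laminin, and fibrillar collagen accumulates in scarring.

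The podocytes of these libraries carried abundant Sparc and Timp3 transcripts and very little of the fibrillar collagens or fibronectin. With PBS, Sparc averaged 4017 ± 900 FPKM and Timp3 827 ± 146 FPKM (SD, n = 3), whereas Col1a1, Col3a1 and Fn1 averaged 2.54, 0.520 and 0.101 FPKM. On day 14 Sparc and Timp3 fell to 1446 ± 795 and 330 ± 83.0 FPKM. Of the 10 genes, 7 had levels high enough for a test, and 0 of these passed as higher in any comparison.

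All 10 podocyte markers examined reached 1 FPKM in every library, and their sum was 2691 FPKM in ADR_D14 replicate 1 and 8396 to 13879 FPKM in the others. Column totals ran from 572787 to 723288 FPKM. Read counts are not in the table, so no counting interval can be given. Relative depth was estimated from the spacing of low values and set to 1 for PBS replicate 2. It came to 0.239 to 0.569 on day 14 and 0.786 to 1.09 in the other libraries. ADR_D9 replicate 3 and ADR_D14 replicate 1 stood apart, with 12 of 12 endothelial markers above 4 times the highest PBS library, a bound that also required 1 FPKM. Their summed endothelial markers were 3305 and 799 FPKM, against 1.26 to 28.8 FPKM in the other 7. Leukocyte markers passed the same bound for 8 of 14 genes in each of the pair. For markers of the distal nephron (distal tubule, loop and duct) it was 12 of 12 in ADR_D14 replicate 1 and 9 of 12 in ADR_D9 replicate 3, and for the proximal tubule 11 and 4 of 12. Mesangial and smooth muscle markers passed it for 5 of 12 genes in ADR_D9 replicate 3 and 2 of 12 in ADR_D14 replicate 1. Summed red cell markers were highest in ADR_D9 replicate 1, at 548 FPKM. Fibroblast markers, the cells best known for type I collagen, summed to 0.126 to 89.5 FPKM, and the highest sum, in ADR_D9 replicate 3, was mostly Cd34 (87.6 FPKM), which endothelial cells share. Transcripts of the Y chromosome (Eif2s3y at 31.6 to 60.3 FPKM) marked the 3 PBS libraries, the first of ADR_D9 and the second of ADR_D14. The other 4 libraries held 0 to 0.777 FPKM of it.

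**Figure D1:**
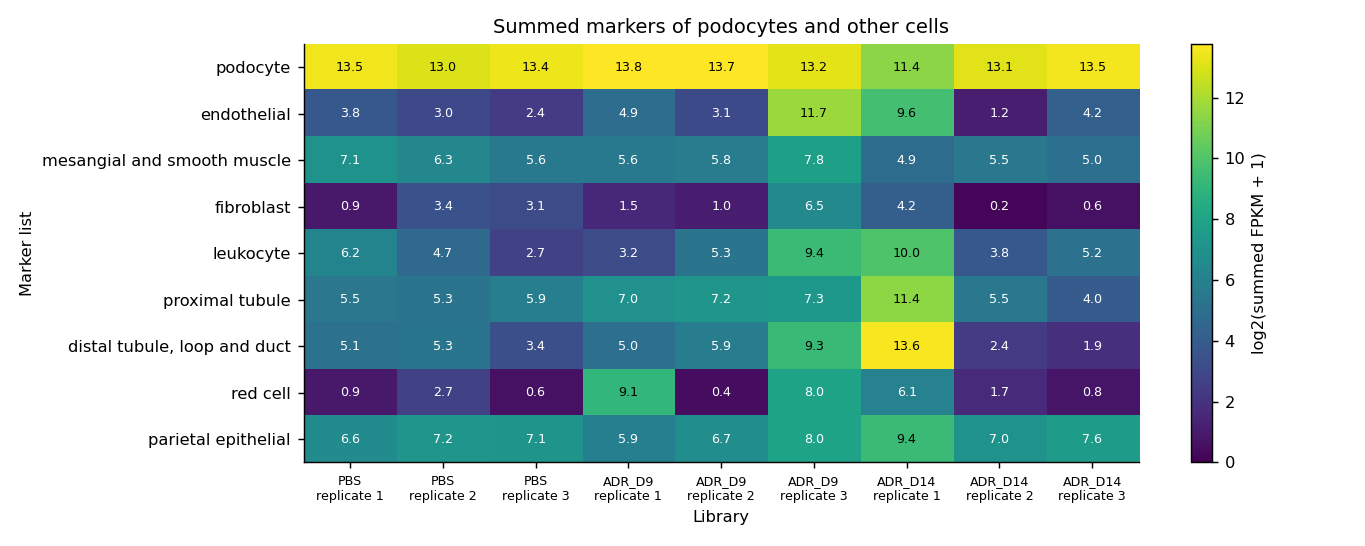
Summed levels of marker lists, as log2(summed FPKM + 1), for podocytes and other cells (rows) in the 9 libraries (columns). The podocyte row is high throughout, and ADR_D9 replicate 3 and ADR_D14 replicate 1 are the libraries with high endothelial, leukocyte and distal tubule rows.

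The order of levels was the same at the top in every group. Sparc was the highest of the 10 in 9 of 9 libraries, followed by Timp3 and then Timp2 in each group's means. Sparc and Timp3 did not overlap in any group, and neither did Timp3 and Timp2. Below them, neighbours overlapped in most cases. With PBS the ranges of Timp2, Timp1, Mmp14, Lox, Col1a2, Col1a1, Col3a1 and Fn1, each taken with the next in that order, all overlapped. Timp2 owed its overlap to PBS replicate 3 (11.4 FPKM). On day 9 Timp2 stood clear of Mmp14, and on day 14 Timp2 again stood clear of Mmp14, Lox of Col1a2 and Fn1 of Col1a1. Among all symbols, Sparc ranked between place 6 and place 26 from the top with PBS, between 16 and 23 on day 9, and between 31 and 153 on day 14. Timp3 ranked between 90 and 160, between 86 and 104, and between 318 and 513.

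**Figure D2:**
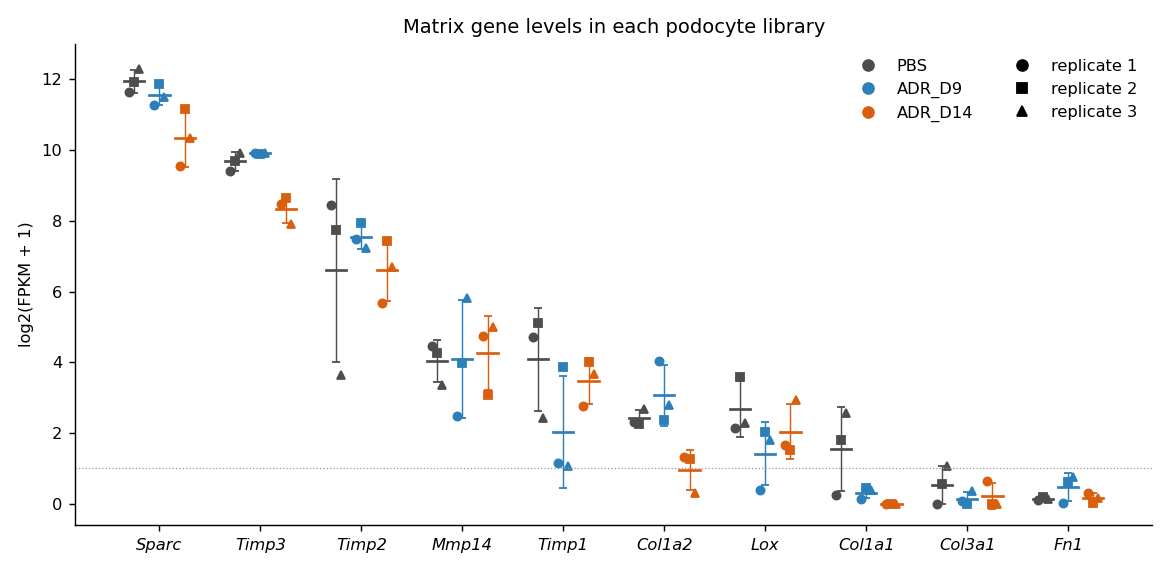
Level of each of the 10 genes as log2(FPKM + 1) in each library, with colours for the groups, symbols for the replicate numbers, and bars for the mean ± SD (n = 3). The dotted line marks 1 FPKM, and Sparc, Timp3 and, outside PBS replicate 3, Timp2 lie well above the other genes.

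A gene entered the test if it reached 1 FPKM in at least 3 of the 9 libraries, and 7 of the 10 genes did. Col1a1 (2 libraries), Col3a1 (1) and Fn1 (0) did not and are described without a test. The test was limma on log2(FPKM + 1) over 9788 genes, two-sided, with Benjamini-Hochberg adjustment over all of them and a threshold of 0.05. Log2 changes are stated after subtracting the median over all genes tested, because other scalings moved that median by over 0.1. That median, in the values as deposited, was 0.04 for day 9 and −0.15 for day 14 when each was set against PBS, and −0.22 between the days. The p-values belong to the changes as deposited. In such bulk RNA, fewer cells of a type and less RNA per cell cannot be told apart.

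Of the chains Col1a1, Col1a2 and Col3a1, only Col1a2 was above 0 in every library. It was at 3.95, 3.8 and 5.39 FPKM in the PBS group, at 15.3, 4.15 and 5.95 on day 9, and at 1.5, 1.39 and 0.235 on day 14. All 3 day 14 libraries lay below all others, and ADR_D9 replicate 1 stood above the rest. Col1a2 fell from day 9 to day 14, with a log2 change of −1.89 ± 0.46 (SE, adjusted p = 0.0213 by limma). That call was lost without ADR_D9 replicate 1 (−1.38, adjusted p = 0.0539 by limma) and without ADR_D9 replicate 3 (−2.07, adjusted p = 0.0575 by limma). Over all 9788 genes, 497 and 381 passed in those fits, against 1536 with all libraries. Against PBS the day 14 change was −1.31 ± 0.46 and did not pass (adjusted p = 0.0601 by limma), although it passed without ADR_D9 replicate 1 (adjusted p = 0.0391 by limma). On day 9 against PBS the log2 change was 0.61 ± 0.46, and 0.15 without ADR_D9 replicate 1, the library highest in red cell markers.

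Col1a1, the other chain of type I collagen, was at 0.178, 2.48 and 4.97 FPKM in the PBS group and at 0.0887, 0.348 and 0.311 on day 9. It is listed at 0 in all 3 day 14 libraries, those of lowest depth. Fibroblast markers summed to 0.917, 9.90 and 7.74 FPKM in PBS replicates 1, 2 and 3. Both were thus lowest in replicate 1, while replicate 3 had more Col1a1 than replicate 2 and a lower marker sum. The part of these markers in the Col1a1 level was not tested. Of the fibroblast markers, Dpt was at 0, 1.60 and 2.61 FPKM there, and Col14a1 and Cd34 were also higher in replicate 3 than in replicate 2. Pdgfra, Lum, Dcn, Mfap5, Scara5 and Clec3b were lower in replicate 3 than in replicate 2, and Thy1 was listed at 0 in both. Col1a2 exceeded Col1a1 in 9 of 9 libraries, by a factor of 1.09 in PBS replicate 3, 1.54 in PBS replicate 2, and 22.2 in PBS replicate 1. In the day 9 libraries, the factor was 173, 11.9 and 19.2. The transcripts of both chains were thus far from equal in most libraries.

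Col3a1 was at 0, 0.461 and 1.10 FPKM in the PBS group, at 0.0496, 0 and 0.275 on day 9, and at 0.570, 0 and 0 on day 14. The groups overlapped, and 4 of the 9 libraries are listed at 0. Fn1 was at 0.0704, 0.133 and 0.101 FPKM in the PBS group, at 0.00605, 0.535 and 0.704 on day 9, and at 0.239, 0.0207 and 0.117 on day 14. It stayed under 1 FPKM in every library, and the day 9 group held both its highest value (replicate 3) and its lowest (replicate 1). A fit with no filter on low values gave log2 changes for Fn1 of 0.31 ± 0.18 on day 9 and 0.03 ± 0.18 on day 14 against PBS (SE, adjusted p = 1 and 0.981 by limma). In that fit Col1a1 had −1.24 ± 0.52 and −1.53 ± 0.52 (adjusted p = 1 and 0.138 by limma). Neither gene passed there.

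Sparc, which binds collagen and calcium outside the cell, was at 3191, 3885 and 4976 FPKM in the PBS group. It was at 2499, 3715 and 2919 FPKM on day 9 and at 743, 2308 and 1286 on day 14. All day 14 libraries lay below all others, whereas the PBS and day 9 ranges overlapped. Sparc fell from PBS to day 14, with a log2 change of −1.45 ± 0.42 (SE, adjusted p = 0.0356 by limma). The drop from day 9 to day 14, −0.99 ± 0.42, missed the threshold (adjusted p = 0.0838 by limma). On day 9 against PBS the log2 change was −0.43 ± 0.42. The lowest value came from ADR_D14 replicate 1, the library with tubule and endothelial markers, and without it the day 14 change against PBS was −1.03 (adjusted p = 0.0490 by limma). The call held without ADR_D14 replicate 1 or 2 and was lost without any of the other 7 libraries in turn (adjusted p from 0.0501 to 0.121 by limma). Over all 9788 genes, 0 passed without PBS replicate 2 and 150 without PBS replicate 3, against 1670 with all libraries. In the remaining fits that lost the call, 1081 to 1885 passed. Adding Y-linked expression to the model, where 0 of 9788 genes passed, gave −1.13 (adjusted p = 0.177 by limma). Of all transcripts, Sparc made up 0.506 to 0.868% of summed FPKM in the PBS group, 0.436 to 0.608% on day 9, and 0.103 to 0.330% on day 14.

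Lox, which oxidises lysines of collagen and elastin so that fibres crosslink, was at 3.43, 11.1 and 3.89 FPKM in the PBS group. It was at 0.313, 3.11 and 2.48 FPKM on day 9 and at 2.18, 1.85 and 6.64 on day 14. Each day 9 library lay below each PBS library, while day 14 overlapped both. The log2 changes were −1.30 ± 0.59 on day 9 and −0.49 ± 0.59 on day 14 against PBS, and 0.84 ± 0.59 between the days (SE, adjusted p = 0.9999, 0.474 and 0.483 by limma). The day 9 value was −0.77 without ADR_D9 replicate 1, −0.84 without PBS replicate 2, and the day 14 value was −0.048 without PBS replicate 2, the library of highest Lox.

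Timp3 showed the tightest values of the inhibitors. It was at 683, 824 and 974 FPKM in the PBS group, at 973, 940 and 958 on day 9, and at 357, 396 and 237 on day 14. The day 14 libraries were all below the other 6, which overlapped. Timp3 fell from PBS to day 14, with a log2 change of −1.19 ± 0.26 (SE, adjusted p = 0.0157 by limma). It fell from day 9 to day 14 as well, by 1.35 ± 0.26 on the log2 scale (adjusted p = 0.0114 by limma). On day 9 it was at 0.19 ± 0.26 against PBS. The drop from day 9 passed in 9 of 9 fits that left out 1 library. The drop from PBS passed in 7 of 9. It was lost without PBS replicate 2 (−1.20, adjusted p = 0.0801 by limma), where 0 of 9788 genes passed. It was also lost without PBS replicate 3 (−1.04, adjusted p = 0.0665 by limma), where 150 of 9788 genes passed. Adding Y-linked expression to the model moved the drop from PBS to −0.99 (adjusted p = 0.0920 by limma). Syn3, which lies opposite Timp3 on the other strand and shares 1733 exon bases with it in GENCODE M21, was listed at 0.0155 to 0.167 FPKM.

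Timp2, which inhibits metalloproteases and also docks pro-Mmp2 on Mmp14, was at 345, 211 and 11.4 FPKM in the PBS group. It was at 179, 243 and 148 FPKM on day 9 and at 50.3, 171 and 103 on day 14. PBS replicate 3 was the lowest of all 9 and PBS replicate 1 the highest, so the PBS group spanned both other groups. The log2 changes were 0.91 ± 1.09 on day 9 and 0.15 ± 1.09 on day 14 against PBS, and −0.73 ± 1.09 between the days (SE, adjusted p = 0.9999, 0.998 and 0.575 by limma). Without PBS replicate 3 the changes against PBS were −0.59 and −1.31, the latter with adjusted p = 0.121 by limma. The sign of Timp2 against PBS thus rested on 1 library.

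Timp1, an inhibitor that is secreted in inflammation and injury, was at 25.3, 33.4 and 4.33 FPKM in the PBS group. It was at 1.23, 13.6 and 1.11 FPKM on day 9 and at 5.75, 15.2 and 11.7 on day 14. All groups overlapped, and the 2 lowest libraries were ADR_D9 replicates 1 and 3. The log2 changes were −2.08 ± 0.90 and −0.45 ± 0.90 against PBS and 1.66 ± 0.90 between the days (SE, adjusted p = 0.9999, 0.667 and 0.286 by limma). Leaving out ADR_D9 replicate 2 moved the day 9 value to −3.03 and the value between the days to 2.61, and leaving out PBS replicate 3 moved the day 14 value to −1.26.

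Timp3 was the highest of the 3 inhibitor genes in 9 of 9 libraries, with 64.8 to 98.4% of their summed FPKM in the PBS group, 78.5 to 86.5% on day 9 and 67.5 to 86.4% on day 14. Their sum was 1053, 1068 and 990 FPKM in the PBS group, 1153, 1196 and 1107 on day 9, and 413, 583 and 351 on day 14. Each day 14 library had a lower summed inhibitor level than any other library.

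**Figure D3:**
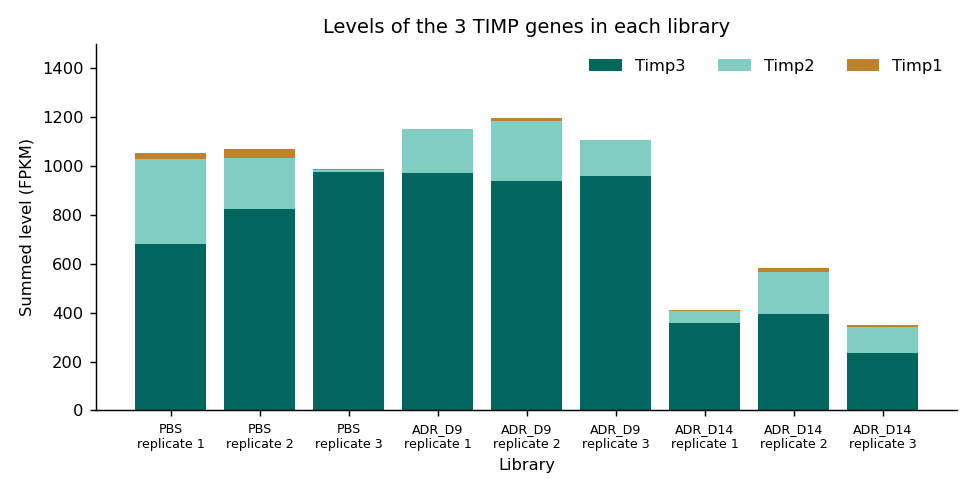
Stacked levels of Timp3, Timp2 and Timp1 in FPKM for each library. The bars stand between 990 and 1196 FPKM in the PBS group and on day 9 and between 351 and 583 FPKM on day 14, and Timp2 is a thin band in PBS replicate 3.

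Mmp14 was at 20.9, 18.3 and 9.25 FPKM in the PBS group, at 4.57, 14.7 and 54.8 on day 9, and at 25.6, 7.42 and 31.1 on day 14. The groups overlapped, and the lowest and highest values were both on day 9. The log2 changes were 0.02 ± 0.82 and 0.39 ± 0.82 against PBS and 0.40 ± 0.82 between the days (SE, adjusted p = 0.9999, 0.856 and 0.898 by limma). The highest value was in ADR_D9 replicate 3, where endothelial markers and mesangial and smooth muscle markers (215 FPKM) summed highest and leukocyte markers stood at 672 FPKM. The part of these cells in it was not tested. Without that library the day 9 value was −0.82. Mmp14 was second highest in ADR_D14 replicate 3, where summed endothelial markers were 17.8 FPKM. Next came ADR_D14 replicate 1, where they were 799 FPKM. Mmp14 stayed below Timp2 in 9 of 9 libraries, with Timp2 exceeding it 1.23 times in PBS replicate 3 and 39.1 times in ADR_D9 replicate 1.

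In sum over the genes tested, 2 of 7 fell on day 14 against PBS (Sparc and Timp3) and 0 rose, with a median log2 change of −0.49. Over all 9788 genes 17.1% passed this comparison, 10.7% as lower and 6.32% as higher. For 3 of the 7, Col1a2 included, the highest day 14 library was under the lowest PBS library. Of all genes 23.8% lay lower without overlap in this way, and 39.4% lay apart in either direction. On day 14 against day 9, again 2 of 7 fell (Col1a2 and Timp3) and 0 rose, with a median of −0.73, where 15.7% of all genes passed, 9.98% as lower and 5.71% as higher. The day 14 libraries lay below the day 9 libraries for the same 3 genes, as they did for 24.6% of all genes, while 37.7% lay apart in either direction. On day 9 against PBS, 0 of 7 passed limma, and 0 of 7 had an unadjusted p under 0.05, with a median of 0.02. In that comparison 0% of all genes passed, and 304 of 9788 had an unadjusted p under 0.05. Lox was the only one of the 7 whose day 9 and PBS libraries did not overlap, and it lay lower. Of all genes 6.63% lay lower without overlap, 6.77% higher, and 13.4% either way. Of the genes called on day 14 against PBS, 619 were higher and 1051 lower, and the split was 818 to 773 with median-of-ratios scaling, 710 to 755 with quantile normalization and 414 to 1677 with a common total. Between the days it was 559 to 977, and 805 to 624, 677 to 535 and 395 to 1832 under those scalings. Both comparisons with PBS share the PBS libraries. Without ADR_D9 replicate 3 and ADR_D14 replicate 1, a choice made after seeing the data, 1 of 7 passed against PBS and 2 of 7 between the days. Over all 9788 genes, 2165 and 1287 passed there.

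**Figure D4:**
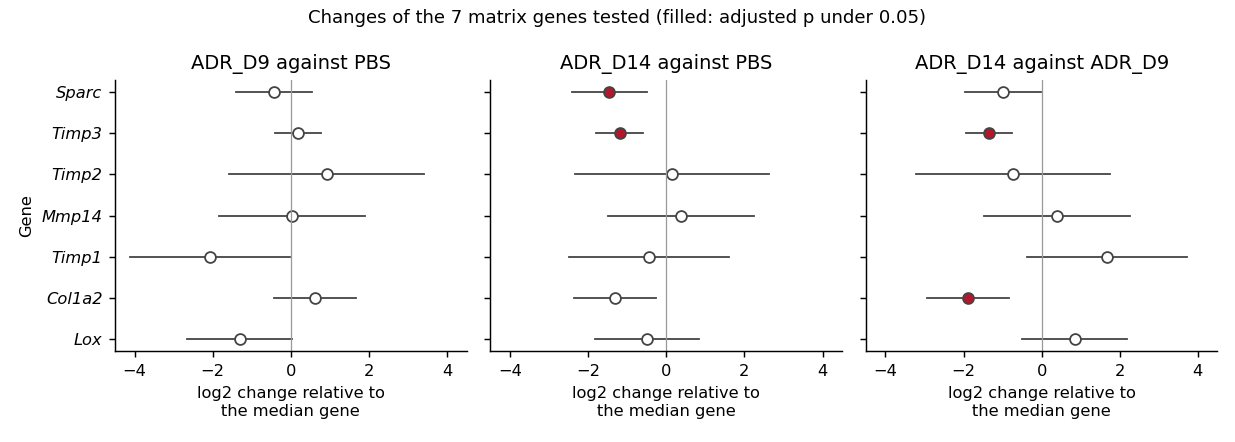
Log2 change relative to the median gene for the 7 genes tested in the 3 comparisons, with 95% confidence intervals and filled points for an adjusted p under 0.05. Sparc and Timp3 are filled for day 14 against PBS, Timp3 and Col1a2 for day 14 against day 9, and the intervals of Timp2, Mmp14 and Timp1 are the widest.

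The stretches upstream of the start site are shown for the 3 genes that passed a test in at least 1 of the day 14 comparisons. Each line gives the 250 bases before the RefSeq start in GRCm38.p6, 5′ to 3′ on the gene's strand, with capitals for motif matches on either strand. The motifs were the TATA box (searched as TATAAA), the promoter element known as the CCAAT box (searched by those letters) and the GC box, a site best known for Sp1 (searched as GGGCGG). Sparc stands on the minus strand at chr11:55420081-55420330, Timp3 on the plus strand at chr10:86300162-86300411, and Col1a2 on the plus strand at chr6:4505368-4505617. The deposited values were made on mm9, whose coordinates differ.
Sparc: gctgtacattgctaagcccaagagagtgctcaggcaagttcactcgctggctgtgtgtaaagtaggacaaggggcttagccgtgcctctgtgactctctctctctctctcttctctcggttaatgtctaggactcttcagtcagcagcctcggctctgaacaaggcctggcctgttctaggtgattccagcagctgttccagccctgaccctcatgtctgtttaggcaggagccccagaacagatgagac
Timp3: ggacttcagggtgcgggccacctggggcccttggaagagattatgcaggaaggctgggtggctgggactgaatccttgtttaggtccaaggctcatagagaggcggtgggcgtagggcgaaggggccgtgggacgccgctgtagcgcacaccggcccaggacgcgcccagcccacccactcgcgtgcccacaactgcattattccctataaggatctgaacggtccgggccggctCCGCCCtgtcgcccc
Col1a2: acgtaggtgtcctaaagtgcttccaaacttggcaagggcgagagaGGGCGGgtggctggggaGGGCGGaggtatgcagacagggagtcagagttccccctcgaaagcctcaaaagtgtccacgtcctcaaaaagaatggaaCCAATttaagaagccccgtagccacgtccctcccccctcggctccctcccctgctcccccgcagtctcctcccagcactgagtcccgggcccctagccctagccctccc
Sparc held none of these letters in this window, Timp3 held 1 GC box 15 bases before the start, and Col1a2 held 2 GC boxes and 1 CCAAT box. Over 32851 promoters of the same length, 12.4% held the TATA box letters, 33.8% those of the CCAAT box and 32.7% those of the GC box. The CG dinucleotide occurred 4 times in the Sparc stretch, 18 times in that of Timp3 and 11 times in that of Col1a2, with a median of 6 over all promoters. None of the 3 motifs occurs in all 3 stretches. Promoters of 7 of the 10 genes were matched.

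The wider matrix programme was read from lists of other genes, 54 of which were tested. Of these, 8 fell and 0 rose on day 14 against PBS (median −0.73), where 10.7% of all genes passed as lower. From day 9 to day 14, 13 fell and 0 rose (median −0.48), where 9.98% of all genes passed as lower, and 0 passed limma on day 9 (median −0.18), where 4 had an unadjusted p under 0.05. None of 8 other fibrillar collagen genes was tested, since their highest value anywhere was 0.940 FPKM, for Col5a2 in ADR_D9 replicate 3. Of 10 other interstitial collagens 3 were tested, and Col18a1, the chain of a basement membrane collagen, fell from 17.4 ± 3.23 FPKM in the PBS group to 4.18 ± 1.87 on day 14 (log2 change −1.72, adjusted p = 0.0207 by limma).

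Of 17 genes tested whose products fold, modify and crosslink collagen, 5 fell from PBS to day 14 and 7 from day 9 to day 14, with medians of −0.88 and −0.53, beside the 10.7% and 9.98% of all genes that passed as lower. P4ha1, the catalytic subunit of a prolyl 4-hydroxylase, was at 45.0, 52.7 and 68.7 FPKM in the PBS group, 59.3, 59.2 and 61.7 on day 9, and 11.9, 25.7 and 16.5 on day 14. Its log2 change on day 14 was −1.46 ± 0.29 against PBS and −1.53 ± 0.29 against day 9 (SE, adjusted p = 0.0131 and 0.0114 by limma). P4hb, its partner subunit and a protein disulfide isomerase, fell by 0.95 and 0.98 on the log2 scale. The crosslinking genes Loxl1 and Loxl3 fell against PBS, with log2 changes of −2.24 and −1.62. Adamts2, which removes the N-terminal propeptide of procollagen, was at 1.5, 1.33 and 0.236 FPKM in the PBS group, 8.41, 2.59 and 4.93 on day 9, and 0.288, 0.214 and 0.0173 on day 14. It fell from day 9 to day 14, with a log2 change of −2.11 ± 0.39 (SE, adjusted p = 0.0118 by limma). Leaving out ADR_D9 replicate 3 and ADR_D14 replicate 1 gave 1371 and 828 of 9788 genes as lower against PBS and day 9. In that setting the enzyme list had 6 lower against PBS and 5 lower against day 9. With Y-linked expression in the model it had 0 and 6, where 0 of 9788 genes passed against PBS and 1292 passed between the days. After removal of the dependence on length and GC content it had 1 and 1, where 598 and 439 of 9739 genes passed.

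Of 17 other proteases and inhibitors tested, 2 fell on day 14 against PBS, Mmp11 (−1.64) and Adamts9 (−0.84). Over all genes, a similar share of 10.7% passed as lower there. Mmp11 (−1.35), Mmp17 (−1.46) and Reck (−0.69), a membrane-anchored inhibitor, fell from day 9 to day 14, where 9.98% of all genes passed as lower. Mmp2, the gelatinase that Mmp14 activates, was at 38.5 ± 12.9, 27.2 ± 19.9 and 16.1 ± 7.27 FPKM in the PBS group, on day 9 and on day 14 and passed in no comparison. Of 9 receptors tested, Itga2, a collagen-binding integrin chain, and Mrc2, a collagen uptake receptor, fell from day 9 to day 14 (−0.91 and −1.0). The share of all genes that passed as lower there was again 9.98%. Against PBS on day 14, 0 receptors passed limma and 4 had an unadjusted p under 0.05. Of 8 matricellular, elastic fibre and proteoglycan genes 0 passed limma in any comparison, and 1 had an unadjusted p under 0.05, on day 14 against PBS. Over all genes, 3348 of 9788 had an unadjusted p under 0.05 on day 14 against PBS, so neither count sets its list apart. Ctgf among them was at 1197, 3069 and 1838 FPKM in the PBS group, 891, 852 and 507 on day 9, and 183, 1536 and 722 on day 14. Its day 14 change against PBS was −1.54 ± 0.71 (SE, adjusted p = 0.134 by limma). Without ADR_D9 replicate 3 and ADR_D14 replicate 1, 1 protease or inhibitor gene was higher on day 14 in each comparison, and 14 of the 54 genes passed against PBS. Over all 9788 genes, 2165 passed against PBS in that setting, 794 as higher and 1371 as lower. Against day 9, 459 of all genes were higher.

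**Figure D5:**
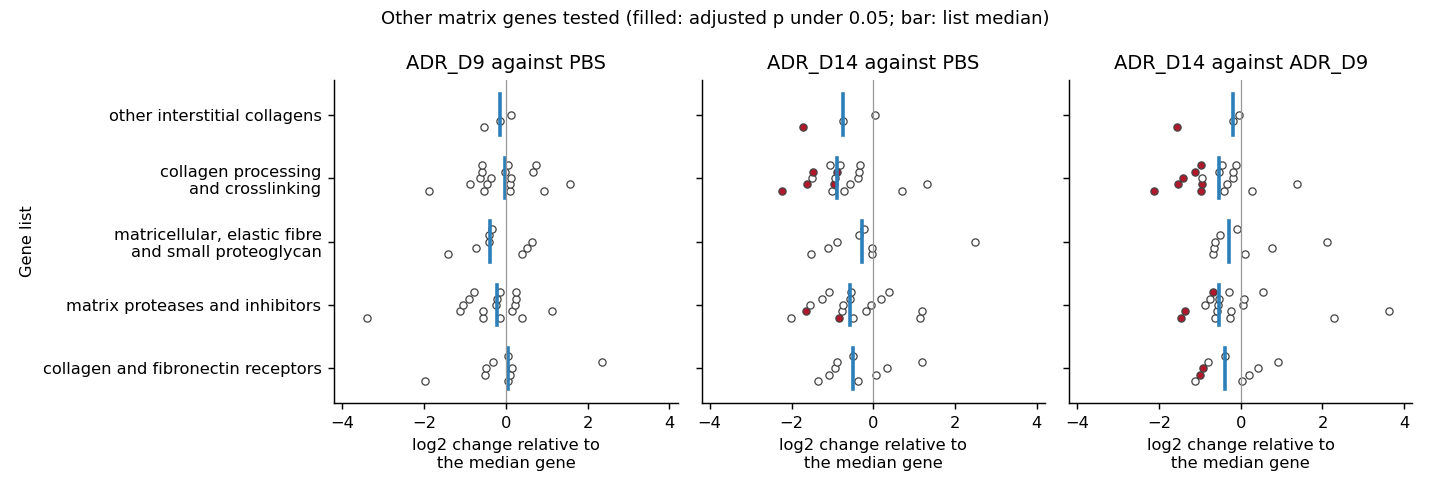
Log2 change relative to the median gene for the 54 other matrix genes tested, by list and comparison, with filled points for an adjusted p under 0.05 and a bar for each list's median. All filled points lie below 0.

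The genes most like each member over the 9 libraries, by Pearson correlation of log2(FPKM + 1) among genes with a mean of at least 5 FPKM, are given as a description. The libraries share their depth and their admixture of other cells, so no p is given. Timp3 was most like Sema5a (0.996), Ablim3 (0.995) and Arhgap12 (0.994). Col1a2 was most like Ncald (0.992) and also like Sema3g (0.974), both highest in ADR_D9 replicate 1. Sparc was most like Ctns (0.984) and Timp2 like Pard6b (0.974) and Spire1 (0.967), which were also lowest in PBS replicate 3. Timp1, Lox and Mmp14 had looser neighbours, with Tiparp at 0.911, Eif2a at 0.879 and A230050P20Rik at 0.963. Among the 7 members tested, Col1a2 and Timp3 (0.902) and Sparc and Timp3 (0.801) were the closest of 21 pairs, and Lox and Timp1 came next (0.668).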

How the data were processed

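RNA was measured in 9 libraries, 3 with PBS, 3 on day 9 and 3 on day 14. Values are FPKM, deposited by the authors in a single table of 23813 rows. Bowtie 0.12.7, Cufflinks and the build mm9 appear, with no role stated, per the submitters' processing notes. Which annotation was used, and whether counting was stranded, is not given in the sources used here, so overlapping genes are uncertain. The control columns are the PBS libraries, matched by their replicate numbers. Where a symbol had several rows (260 symbols), the one of highest mean was used.

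The 9788 genes that reached 1 FPKM in 3 or more libraries were fitted by limma 3.58.1 (R 4.3.3) with its variance trend, a pseudocount of 1, all 9 libraries and the group as the only term. The fit was tested on simulated data. The members, the gene and marker lists and the tests were chosen with earlier results of these data known. The naming rule took all members, up to 4 genes with the smallest p per list and comparison, and up to 3 most alike genes per member. Other genes and values were named after they were seen, among them Mmp2, Mmp10, Mmp23, Serpinh1, Spp1, Dpt, Cd34 and Syn3. Alternatives covered the pseudocount, filters, scalings, duplicate symbols, the variance trend, the groups fitted, a replicate block, another threshold and each library left out. Alternatives chosen after seeing the data left out libraries with markers of other cells, added a term for Y-linked transcripts, or removed a trend on the length and GC content of the longest GENCODE M21 transcript, matched for 99.5% of genes tested. Depth beyond the relative estimate is unknown. The full strain name is not reported here.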

Additional observations from a re-analysis of the deposited data

Results flagged for a closer look

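For 12 of the named genes the day 14 libraries differed from the day 9 libraries (limma, adjusted p under 0.05). Both days share 1 PBS group, for which no day is listed. A change in the effect of ADR over time can therefore not be told apart from other differences between the day 9 and day 14 libraries, such as depth. Timp3 and Col1a2, of the 10 members, were among them, Timp3 at a log2 change of −1.35 and Col1a2 at −1.89. Timp3 stood at 0.19 on day 9 and −1.19 on day 14 against PBS, and Col1a2 at 0.61 and −1.31. The others were the collagen processing genes P4ha1 (−1.53), P4hb (−0.98), Adamts2 (−2.11) and Loxl3 (−1.11), the collagen chain Col18a1 (−1.55), the proteases Mmp11 (−1.35) and Mmp17 (−1.46), the inhibitor Reck (−0.69), and the receptors Itga2 (−0.91) and Mrc2 (−1.0). All 3 day 14 libraries lay below all 3 day 9 libraries for each, as they did for 24.6% of all genes. In this comparison 15.7% of all genes passed, 9.98% as lower. Genes outside the 10 members had been named for a small p in their lists, so the count of 12 partly reflects that choice. Among fits that left out 1 library, Timp3, P4ha1 and Adamts2 passed in 9 of 9, Col1a2 in 7, Mmp11 in 6, P4hb in 5, Col18a1 and Loxl3 in 4, Mmp17, Reck and Mrc2 in 3 and Itga2 in 2. The causes were not tested.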

How the results depend on the processing

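Sparc and Timp3 on day 14, and Col1a2 on day 14, had log2 changes below 0 in every alternative run against PBS and against day 9, while their calls depended on the setting. The 2 members that passed on day 14 against PBS became 1 with no filter on low values, 1 with median-of-ratios scaling, 0 with only the 2 groups compared, 1 without ADR_D9 replicate 3 and ADR_D14 replicate 1, 0 with the term for Y-linked transcripts (where 0 of all 9788 genes passed) and 0 with the length and GC trend removed (598 of 9739 genes, with Sparc at −1.56 and Timp3 at −1.01). A common total and an adjusted p under 0.1 each gave 3. Leaving out 1 library gave 0 to 2. Over all 9788 genes, 470 passed there with only the 2 groups compared, and 0 to 1885 with 1 library left out. On day 14 against day 9 the 2 members became 1 with no filter, 1 with a mean of at least 5 FPKM (which left 5 members), 1 with only the 2 groups compared, 0 with the red cell library left out as well (0 of 9788 genes, with Timp3 at −1.45 and Col1a2 at −1.42) and 0 with the trend removed (439 of 9739 genes). They became 3 with a common total or an adjusted p under 0.1, and 1 to 3 with 1 library left out. Over all 9788 genes, 262 passed between the days with only the 2 groups compared, and 381 to 2124 with 1 library left out. With a mean of at least 5 FPKM, 1175 of 6437 genes passed. The cause was not tested.

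Of the 54 other matrix genes, the 8 that passed on day 14 against PBS became 4 with no filter, 15 with a common total, 5 with only the 2 groups compared, 14 at an adjusted p under 0.1, 14 without ADR_D9 replicate 3 and ADR_D14 replicate 1, 0 with the Y-linked term, as for all genes, and 2 with the trend removed, and 0 to 10 with 1 library left out. Over all 9788 genes, the 1670 calls became 2091 with a common total, 2691 at an adjusted p under 0.1 and 2165 without those 2 libraries. They became 470 with only the 2 groups compared, and 997 of 19046 genes with no filter. The 13 against day 9 became 4 with no filter, 6 with median-of-ratios scaling, 7 with quantile normalization, 2 with only the 2 groups compared, 0 with the red cell library left out as well, as for all genes, and 1 with the trend removed, and 2 to 13 with 1 library left out. Over all genes, the 1536 calls between the days became 881 of 19046 with no filter and 1429 with median-of-ratios scaling. They became 1212 with quantile normalization, 262 with only the 2 groups compared and 439 of 9739 with the trend removed. A replicate block gave 7 of the 54 genes between the days, where 1200 of all genes passed. It changed no member's call, with 0, 2 and 2 members past the test in the 3 comparisons. Of 9 correlations of deviations between same-numbered libraries, 1 exceeded 0.1 (range −0.265 to 0.431). With 3 libraries per group, these values cannot show whether the replicate numbers mark shared animals or batches.

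Some values that had not passed changed sign. Mmp14 on day 9 against PBS went to −0.016 with a pseudocount of 0.1, −0.33 without PBS replicate 3, −0.82 without ADR_D9 replicate 3, −0.82 also without both libraries with markers of other cells, −0.039 with the red cell library left out as well, −1.37 with the Y-linked term and −0.0092 with the trend removed. Mmp14 on day 14 went to −0.97 against PBS with the Y-linked term, and to −0.38 against day 9 without ADR_D9 replicate 1. Timp2 went to −0.59 on day 9 without PBS replicate 3, and on day 14 against PBS to −1.31 without that library, −0.28 without ADR_D14 replicate 2 and −0.066 with quantile normalization. Timp1 on day 14 went to 0.047 without PBS replicate 2, and Col1a2 on day 9 to −0.030 with all 3 libraries left out. With 1 library left out, the highest values of these were 0.84 for Mmp14 on day 9 and 1.21 between the days, 1.85 for Timp2 on day 9 and 1.06 on day 14 against PBS, and the lowest for Timp1 on day 14 was −1.26. The low depth on day 14 limits Col1a1, Col3a1 and Fn1.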

Other observations

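Some matrix genes outside the 10 reached higher levels than most of them. Mmp23, a membrane-bound protease, had the highest mean of 23 Mmp symbols in every group, at 970 ± 112 FPKM in the PBS group, 892 ± 312 on day 9 and 617 ± 413 on day 14. Serpinh1, the collagen chaperone, was at 74.8, 149 and 246 FPKM in the PBS group, at 80.1, 69.1 and 248 on day 9, and at 130, 33.0 and 66.5 on day 14. The groups overlapped, and the day 14 change against PBS was −0.93 (adjusted p = 0.282 by limma). Itgb5, an integrin chain, was at 772, 361 and 42.9 FPKM in the PBS group and at 2125, 979 and 829 on day 9. All day 9 libraries lay above all PBS libraries (log2 change 2.34, adjusted p = 0.9999 by limma), as for 6.77% of all genes. Without PBS replicate 3 the Itgb5 change was 1.13. Sdc4, a fibronectin co-receptor, was at 228, 417 and 795 FPKM in the PBS group and at 127, 190 and 55.1 on day 9 (−1.97, adjusted p = 0.9999 by limma).

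Mmp10, a stromelysin, varied 3175-fold between its lowest and highest library. It was at 86.8, 106 and 4.91 FPKM in the PBS group, at 0.147, 37.5 and 0.132 on day 9, and at 0.0964, 178 and 306 on day 14. Its Pearson correlation with Timp1 over the 9 libraries was 0.853 on the log2 scale, a pair picked after its values were seen and given with no p. Spp1 (osteopontin) was at 782 FPKM in ADR_D14 replicate 1, the library rich in tubule markers, and at 0.510 to 17.1 FPKM elsewhere.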
